A study of Homo sapiens with 6 samples.

Results

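Cathepsins are the proteases of the lysosome, and this account follows 10 of their genes, CTSA, CTSB, CTSC, CTSD, CTSF, CTSH, CTSK, CTSL, CTSS and CTSZ, through a map of the protease MMP-2 on chromatin. The members were taken by gene symbol from the GENCODE annotation on GRCh37, and all 10 were found among its 20162 protein coding genes. No threshold on the values reported here was applied to choose them. The list was drawn up with earlier results of these data known, and it includes CTSB, an example of the study. Native ChIP-Seq (nChIP-Seq), in which micrococcal nuclease frees nucleosomes that are immunoprecipitated without crosslinking, had been performed in U2OS, a human osteosarcoma cell line, grown past confluence. The pro-form of MMP-2 with a 3xHA tag at its C-terminus was stably and constitutively expressed beside the cells' own MMP-2 in the ProMMP2-3xHA line, and the wild type (WT) cells were untagged. An HA antibody was used in ProMMP2-3xHA cells in 3 independent experiments and in WT cells as the negative control, and an antibody against H3K4me3, histone H3 trimethylated at lysine 4, in 1 library of each line. Lists of peaks were held for 5 of the 6 samples, with 1 more called on the merged HA replicates, and no list of HA in WT cells was used here. The lists held 7216 merged HA regions, 6401, 9193 and 8933 peaks of HA replicates 1, 2 and 3, and 19102 and 17130 H3K4me3 regions of ProMMP2-3xHA and WT cells. Whether the stable line is 1 clone is not given in the sources used here, and with 1 H3K4me3 library of each line a difference between the lines cannot be told apart from a difference between libraries.

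Cathepsins are made as inactive proenzymes, are carried to the lysosome by receptors for mannose 6-phosphate, and become active as their propeptides are removed at acid pH. CTSB, CTSC, CTSF, CTSH, CTSK, CTSL, CTSS and CTSZ are cysteine proteases of the papain family, CTSD is an aspartic protease, and CTSA is a serine carboxypeptidase. Several can act outside the lysosome, and CTSL is known as a nuclear protease that cuts the N-terminal tail of histone H3, the substrate that nuclear MMP-2 also cuts. The study singled out CTSB as a gene occupied by ProMMP2-3xHA and as another protease of the H3 tail. By ChIP with qPCR it also reported cleaved H3 at the CTSB TSS and gene body, reduced when MMP-2 was depleted. CTSB expression was reported as impaired in the depleted cells. Neither measurement was analysed here. The question here was where HA and H3K4me3 lay at each of these genes.

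The cathepsin genes fell into 4 groups at the TSS, the transcription start site. CTSA, CTSB, CTSL and CTSZ had a merged HA region and H3K4me3 in both lines within 1 kb of the TSS of their canonical transcript. CTSC and CTSD had H3K4me3 in both lines and no HA. CTSF and CTSH had a short H3K4me3 region in WT cells alone, and CTSK and CTSS had neither mark. The 4 of 10 genes with merged HA stood beside 30.4% of the 19881 protein coding genes that have a canonical transcript, and a share that close to the background is not a result about the cathepsins. Within the 6 members that carried H3K4me3 in both lines, 4 had merged HA, beside 49.2% of the 12128 genes with that state.

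**Figure D1:**
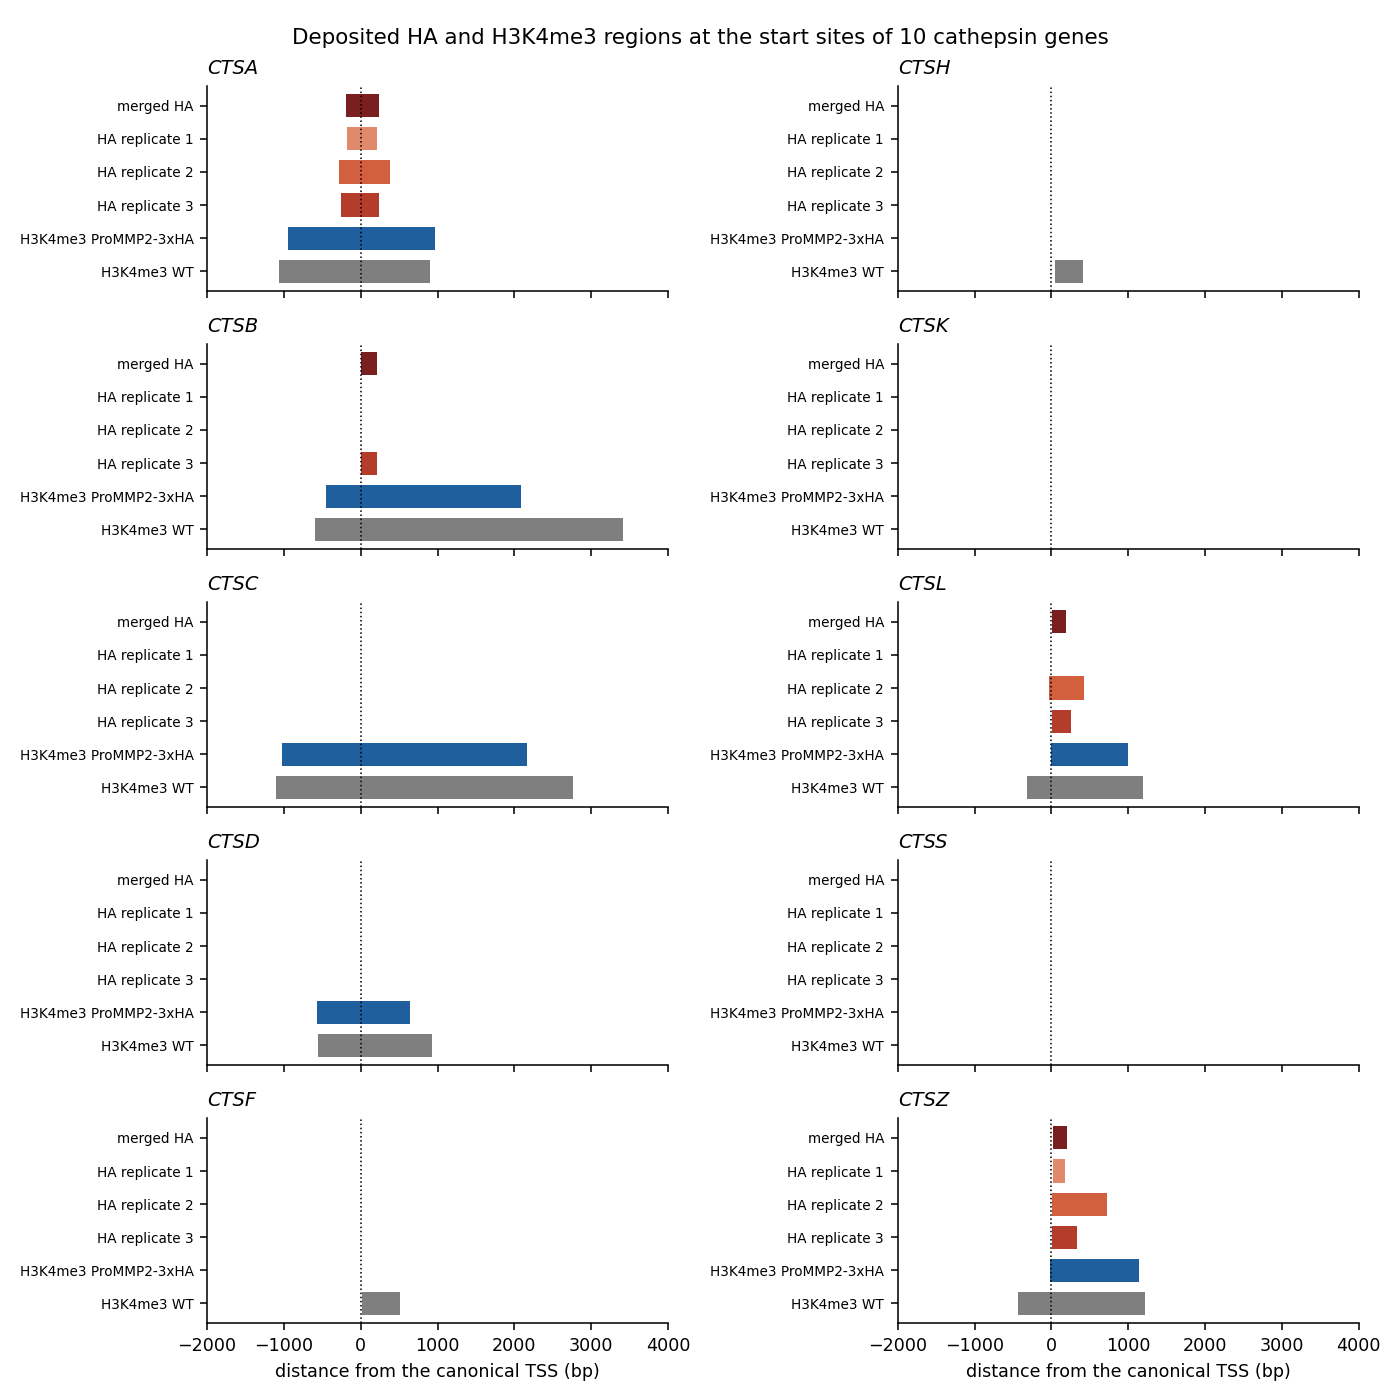
Each panel plots 1 cathepsin gene, with the distance from its canonical TSS in bp on the x axis, transcription running to the right, and 1 row for each list of regions. HA bars appear at CTSA, CTSB, CTSL and CTSZ and lie within H3K4me3 of WT cells, CTSC and CTSD hold H3K4me3 bars only, CTSF and CTSH hold a bar in WT cells only, and the panels of CTSK and CTSS are empty.

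The choice of start site decided which genes were counted. For every member the 5′ end of the annotated gene, set by its most upstream transcript, lies upstream of the canonical TSS, by 179 bp for CTSS and up to 21948 bp for CTSC. Measured from the 5′ end of the gene, 1 member, CTSA, had merged HA within 1 kb, against 28.3% of all genes. Counting any start site of a coding transcript of the gene returned the same 4 members as the canonical TSS, against 31.8% of genes. The edge of the window ran through CTSA and CTSZ: from the 5′ end of the gene the merged region began 994 bp away at CTSA, just inside, and 1002 bp away at CTSZ, just outside. The study also used canonical start sites, from UCSC tables for hg19. Here the canonical transcript was that marked in GENCODE, and distances are from its TSS unless the 5′ end of the gene is named.

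The replicates differed in how many cathepsin genes they held. At the canonical TSS, replicate 1 had a peak at 2 members, replicate 2 at 3 and replicate 3 at 4, a mean of 3.00 ± 1.00 (SD, n = 3), beside 22.0%, 29.9% and 30.8% of all genes in the same lists. At the 5′ end of the gene these numbers were 0, 2 and 2, beside 20.3%, 28.0% and 28.6% of all genes. The mean was 1.33 ± 1.15 (SD, n = 3). CTSA and CTSZ had a peak in every replicate at the canonical TSS, 2 of 10 beside 17.5% of all genes, whereas 0 of 10 did so at the 5′ end of the gene, beside 16.1%. CTSL was found in replicates 2 and 3, and CTSB in replicate 3 alone.

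CTSA encodes cathepsin A, or protective protein, a carboxypeptidase that also shields the lysosomal β-galactosidase and neuraminidase from degradation. Its merged HA region (chr20:44519777-44520205, GRCh37, plus strand) ran from position -197 to position 231 relative to the TSS, over exon 1 and into intron 1. The canonical TSS of the gene NEURL2 also lies within 1 kb of this region, and HA at the 2 start sites cannot be told apart. The fold enrichment of the highest summit, which MACS2 computes as the ratio of HA fragments to the local control background after HA is scaled to the control's depth and 1 is added to both, was 4.39, 4.09 and 5.42 in replicates 1, 2 and 3 (4.63 ± 0.698, SD, n = 3). These 3 summits lay in intron 1, at 105, 81 and 115 bp downstream of the TSS. The number of fragments over each summit, which was recovered from the fold enrichment and p-value of the same line, was 59, 66 and 62, with exact Poisson 95% intervals of 44.9 to 76.1, 51.0 to 84.0 and 47.5 to 79.5. The 3 intervals overlap one another.

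CTSZ encodes cathepsin Z, also called cathepsin X, a carboxypeptidase. Its merged region (chr20:57582110-57582291, minus strand) began 18 bp and ended 199 bp downstream of the TSS, over exon 1. The summits had a fold enrichment of 3.57, 2.93 and 3.47 (3.32 ± 0.342, SD, n = 3), and they lay 141, 108 and 162 bp downstream of the TSS. The fragments over these summits numbered 60, 63 and 49, close to those at CTSA and above the medians of 50.0, 44 and 41 over all summits of the same lists. The local background, scaled to the HA depth, was 14.3, 19.6 and 12 fragments at CTSZ and 10.7, 14 and 9 at CTSA. At both genes it exceeded the commonest background of the lists, 4.74, 4.34 and 4.23 fragments. Fragments and background were both recovered from the fold enrichment and its p-value, and the part of the control signal in the low value of CTSZ was not tested.

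CTSL encodes cathepsin L, an endopeptidase of the lysosome and the H3 tail protease named above. Its merged region (chr9:90341043-90341230, plus strand) lay from 9 to 196 bp downstream of the TSS, in exon 1. Fold enrichment was 5.90 in replicate 2, with 51 fragments at the summit (38.0 to 67.1), and 4.37 in replicate 3, with 37 fragments (26.1 to 51.0). Replicate 1 had no peak there, and its nearest peak lay 248078 bp from the TSS. The list of replicate 1 was the shortest, with 6401 peaks against 9193 and 8933, and the lists do not hold the signal below the threshold, so the level of HA at CTSL in replicate 1 is unknown.

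CTSB encodes cathepsin B, an endopeptidase that also removes dipeptides from the C-terminal end of its substrates. It had 2 merged HA regions, 1 at the TSS and 1 near the far end of the gene. The TSS region (chr8:11725385-11725590, minus strand) ran from 6 to 211 bp downstream of the TSS, from exon 1 into intron 1. It coincided with a peak of replicate 3, with a fold enrichment of 5.25 and 41 fragments at the summit (29.4 to 55.6), and replicates 1 and 2 had no peak within 1 kb. The distal region (chr8:11703166-11703364) was centred on coding exon 9 of the 10 exons, 22331 bp downstream of the TSS, and was the only merged HA region of the 10 genes that lay over 1 kb from every coding start site. It overlapped a peak in every replicate, with a fold enrichment of 4.76, 5.01 and 3.73 in replicates 1, 2 and 3 and 36, 33 and 24 fragments at the summits. Those fragment numbers are below the median summit of each list, and the 24 of replicate 3 is below 27, the 5th percentile of its list. The replicate 3 peak had a −log10 q-value of 1.68, so it would not pass a q-value of 0.01. No H3K4me3 region of either line lay within 1 kb of this exon. The study's broad region over CTSB was called by another method, from read coverage in windows along the genome, which was not analysed here.

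Merged HA regions in the body of a gene and away from its start sites were uncommon. A region that spreads into the gene from a start site is not counted by the first definition below, unlike in the study's broad regions. A merged region within the canonical transcript and over 1 kb from every coding start site was found in 1 of 10 members, CTSB, and in 2.60% of all genes. The study had already shown CTSB for HA in its gene body, so this count was not blind to the values. By the wider definition, a region in the annotated gene and over 1 kb from its 5′ end, 3 members qualified, CTSB, CTSL and CTSZ, beside 9.08% of genes. In CTSL and CTSZ this region was the one at the canonical TSS. Replicate 2 held 3 more peaks at CTSB that neither the other replicates nor the merged list held. They lay in intron 1, in intron 5 and past the 3′ end, 14381, 19221 and 27849 bp downstream of the TSS by their summits, with a fold enrichment of 3.47, 3.61 and 4.73 and 37, 23 and 37 fragments. Replicate 3 held 1 more peak at CTSZ, past the 3′ end of its canonical transcript, where the fold enrichment was 4.01 with 26 fragments and a −log10 q-value of 1.68.

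**Figure D2:**
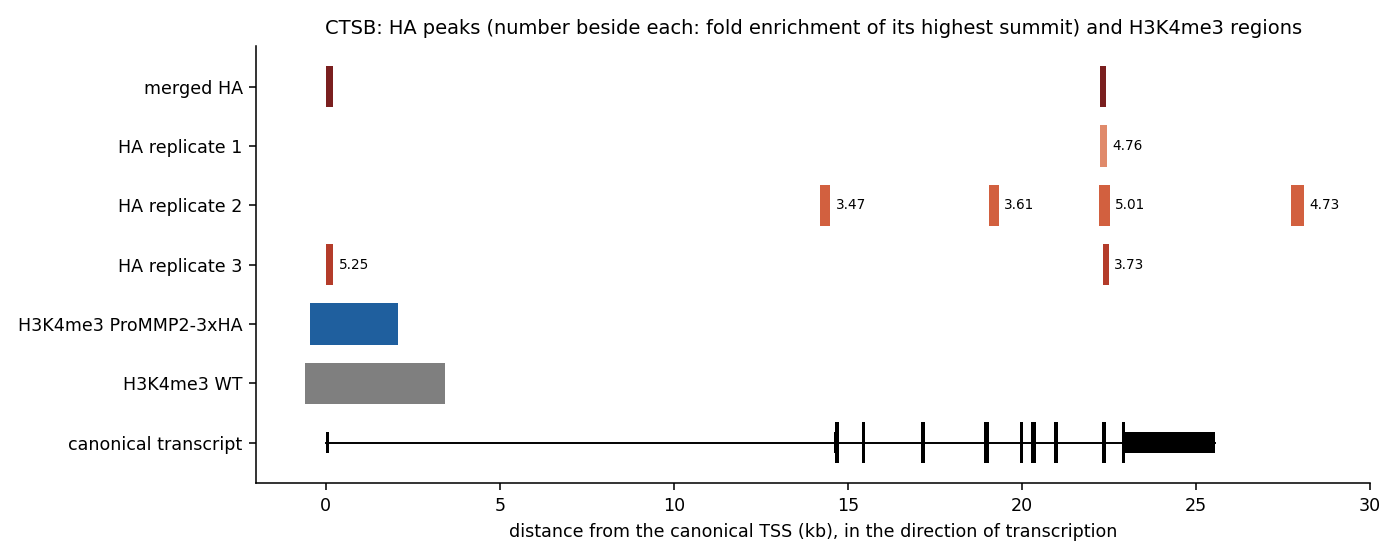
The plot shows CTSB, with the distance from its canonical TSS in kb on the x axis, 1 row for each list of regions, the fold enrichment of the highest summit beside each replicate peak, and the exons of the canonical transcript at the bottom (tall boxes are coding). At the authors' q-value of 0.05 the exon 9 peak is present in all 3 replicates at 3.73 to 5.01, weakest in replicate 3. The TSS peak is in replicate 3 alone at 5.25, and H3K4me3 lies at the 5′ end only.

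Among bound genes the cathepsins ranked from low to middle. The median fold enrichment over all genes with a peak within 1 kb of the canonical TSS was 4.98, 5.68 and 5.01 in replicates 1, 2 and 3 (4382, 5938 and 6117 genes). CTSZ stood near the lower end in every list, where 7.83%, 1.62% and 7.08% of bound genes, itself included, were at or below its value. Its mean log2 ratio to the median was -0.66 ± 0.26 (SD, n = 3). The two-sided exact permutation test of the sign gave p = 0.25, the smallest that 3 replicates allow. CTSA was at a mean log2 ratio of -0.18 ± 0.29 (SD, n = 3, exact permutation p = 0.5), with 29.9%, 17.4% and 60.6% of genes at or below its value, so it lay on either side of the median. CTSA exceeded CTSZ in 3 of 3 replicates, by 0.30, 0.48 and 0.64 on the log2 scale (mean 0.47 ± 0.17, SD, n = 3, exact permutation p = 0.25). The labels list 1 HA library of WT cells, and if it was the background of all 3 replicates, these fold enrichments share their control and are not independent. Before scaling, the recovered background was 3 control fragments at CTSA and 4 at CTSZ in both replicates 1 and 3, and 4.98 and 6.98 in replicate 2. CTSL had 54.6% of genes at or below its value in replicate 2 and 31.4% in replicate 3, and CTSB had 55.8% in replicate 3. No difference among the 4 genes could pass a threshold of 0.05 with this number of replicates.

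**Figure D3:**
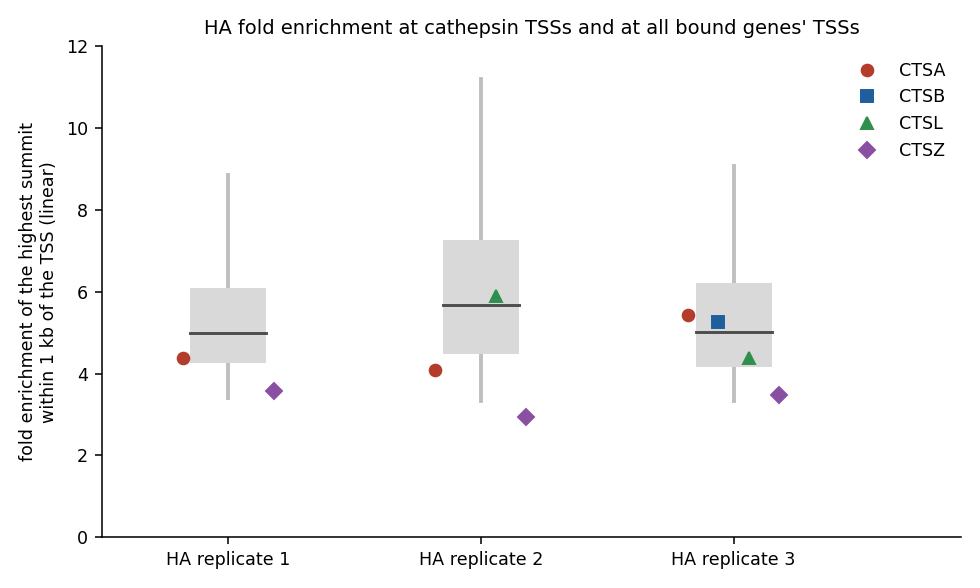
The y axis is the fold enrichment of the highest HA summit within 1 kb of the canonical TSS on a linear scale, for each HA replicate on the x axis. Grey boxes span the 25th to 75th percentile of all genes with such a peak, the line is their median and the whisker spans the 5th to 95th percentile. CTSZ (2.93 to 3.57) lies under the box in every replicate, CTSA spans 4.09 to 5.42, and the values of CTSL and CTSB are within the box.

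H3K4me3, a mark of promoters, was found at 6 of 10 members in ProMMP2-3xHA cells and at 8 of 10 in WT cells at the canonical TSS. The shares of all genes were 61.2% and 65.0%. From the 5′ end of the gene the counts were 4 of 10, beside 57.0%, and 5 of 10, beside 60.9%. With 1 library of each line there was no replicate error, and no test was made. Among the 6 genes marked in both lines, the widest regions were those of CTSB, with 2539 bp in ProMMP2-3xHA cells and 4020 bp in WT cells, and CTSC, with 3194 and 3874 bp. CTSC encodes dipeptidyl peptidase I, which activates the serine proteases of immune cells. This gene also had a second H3K4me3 region in ProMMP2-3xHA cells alone (chr11:88060676-88061056). It was 381 bp wide and lay in intron 2, centred 10038 bp downstream of the TSS. In WT cells, 95.6% of the genes marked in both lines had a narrower region than CTSB, and 94.8% a narrower one than CTSC. Of this widest pair, 1 gene had HA and 1 had none.

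At CTSA the region measured 1915 bp in ProMMP2-3xHA cells and 1971 bp in WT cells, a ratio of 0.972. At CTSD, the gene of the main aspartic protease of the lysosome, it measured 1216 and 1479 bp (ratio 0.822), with the start site of another coding gene within 1 kb, and the ratio at CTSC was 0.824. The ratios were lower at CTSZ, with 1160 and 1659 bp (0.699), at CTSL, with 1007 and 1515 bp (0.665), and at CTSB (0.632). All 6 were below 1, with a median of 0.761, and over all genes marked in both lines the median was 0.782 and 93.1% were below 1. The regions of the cathepsins thus differed between the lines in the same direction as the list as a whole. The genes differed in which edge held the larger part of the difference. CTSL and CTSZ were shorter by 314 and 411 bp at the upstream edge and by 194 and 88 bp at the downstream edge. In ProMMP2-3xHA cells their upstream edges lay 6 and 23 bp upstream of the TSS. CTSB was shorter by 1334 bp and CTSC by 607 bp at the downstream edge, and both by less at the upstream edge. CTSA was shorter at the upstream edge only and CTSD at the downstream edge only. Over all genes marked in both lines, the median shortening was 170 bp at the upstream edge and 198 bp at the downstream edge.

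**Figure D4:**
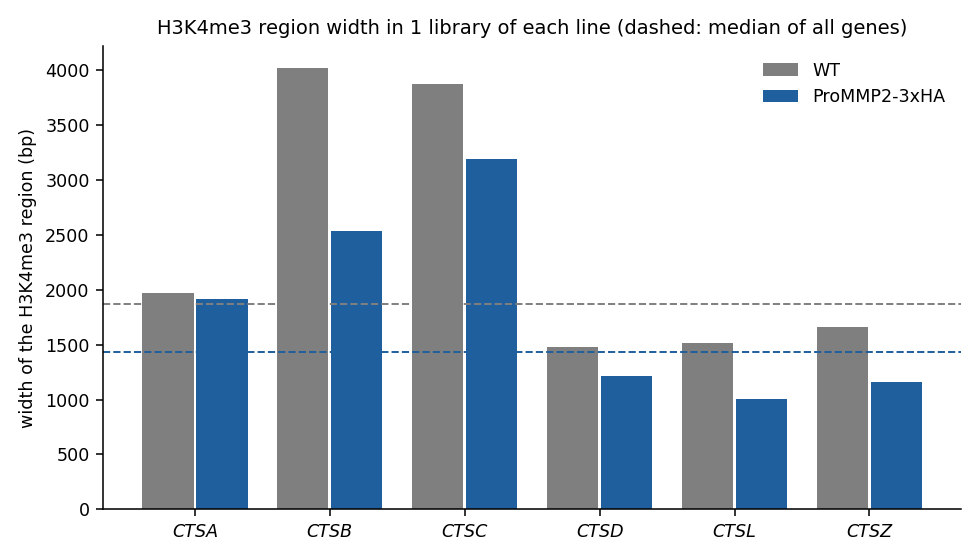
Bars give the width in bp (y axis, from 0) of the H3K4me3 region nearest to the canonical TSS of the 6 cathepsin genes marked in both lines, in 1 library of WT cells (grey) and 1 of ProMMP2-3xHA cells (blue), with no error bar. Dashed lines are the medians of 12128 genes, 1873 bp in WT and 1434 bp in ProMMP2-3xHA cells, and in each gene the blue bar is the shorter, from 0.632 of the grey bar at CTSB to 0.972 at CTSA.

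CTSF and CTSH were marked in WT cells alone, and without HA, 2 of 10 members beside 3.88% of all genes. CTSF encodes a lysosomal cysteine protease and CTSH an aminopeptidase. The CTSF region (chr11:66335568-66336060) was 493 bp wide and began 17 bp downstream of the TSS, and the CTSH region (chr15:79236970-79237344) was 375 bp wide and began 44 bp downstream. Both were short against the median of 1873 bp in WT cells of genes marked in both lines. Regions called in WT cells alone were short in general, with a median of 606 bp over 772 genes, and 39.0% of them were under 500 bp. The lists of regions carry no height, so how far CTSF and CTSH were above the threshold in WT cells, or below it in ProMMP2-3xHA cells, is unknown.

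CTSK and CTSS had no region in any of the 6 lists at the TSS, as had 6820 of the protein coding genes. CTSK encodes the collagen-degrading protease of osteoclasts, and CTSS the protease that processes the invariant chain in antigen-presenting cells. They are neighbours on chromosome 1, and the nearest merged HA region to both (chr1:150848711-150849571) lay at the TSS of ARNT, 67975 bp from that of CTSK and 110457 bp from that of CTSS. For CTSC, CTSD, CTSF and CTSH the nearest merged HA region lay 1068092, 62951, 24573 and 58762 bp from the TSS. That of CTSF was at the TSS of CCS.

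The sequence around the start site separated CTSK and CTSS from the other 8 members, whether or not these had HA. Over 250 bp on each side of the canonical TSS, the ratio of observed to expected CG dinucleotides was 0.309 at CTSK and 0.192 at CTSS, with 7 and 4 CG sites. At the 8 other genes it ranged from 0.754 at CTSL to 0.886 at CTSD, with 40 to 65 CG sites. CTSC and CTSD, with H3K4me3 and no HA, were at 0.861 and 0.886, above CTSA, CTSB, CTSL and CTSZ at 0.818, 0.820, 0.754 and 0.840. Over all genes the median was 0.862 with HA and H3K4me3 in both lines, 0.842 with H3K4me3 in both lines alone, 0.789 with H3K4me3 in WT cells only and 0.297 with neither, and each member lay within the 5th to 95th percentile of its class.

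**Figure D5:**
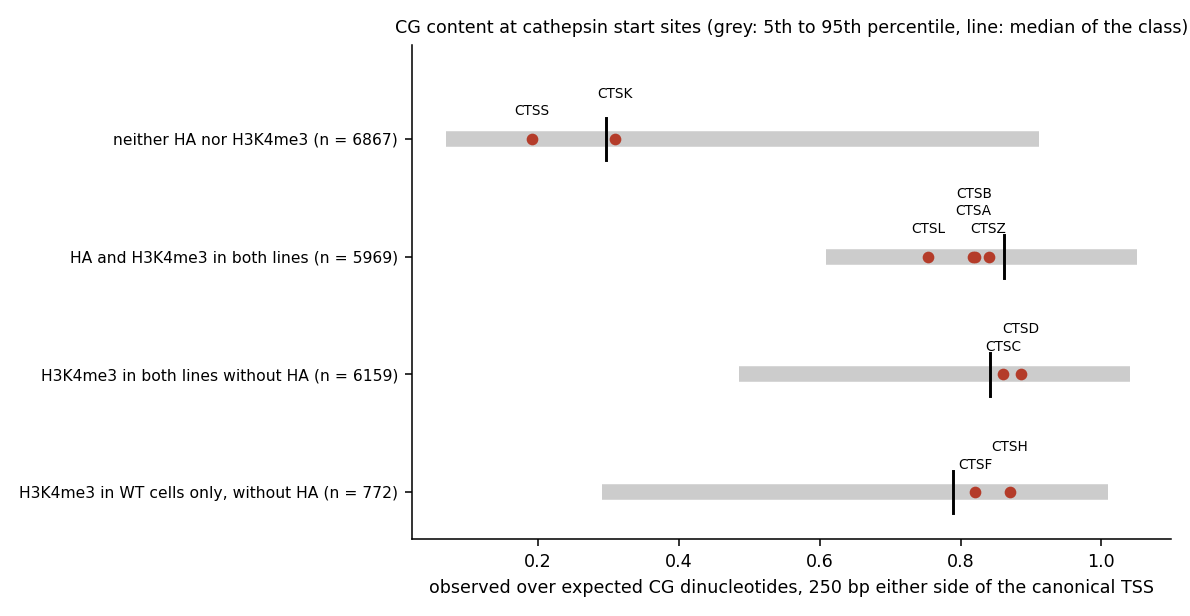
The x axis is the ratio of observed to expected CG dinucleotides within 250 bp of the canonical TSS, and the rows are 4 classes of genes by HA and H3K4me3. Red points are the 10 cathepsin genes, the grey band spans the 5th to 95th percentile of all genes in the class and the black line their median. CTSS and CTSK lie at 0.192 and 0.309 in the class without either mark, and the other 8 lie between 0.754 and 0.886.

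Stretches of these start sites, read from GRCh37 in the direction of transcription, are shown for a gene with HA, one with H3K4me3 alone and one with neither, to make visible the low CG content of the last. They are from coding exon 1 of CTSZ (chr20:57582059-57582183, minus strand), which holds the summits of replicates 1 and 3, from 250 to 38 bp upstream of CTSD (chr11:1785195-1785407, minus strand) and from intron 1 of CTSS (chr1:150738004-150738173, minus strand). Capitals mark each CG dinucleotide. The stretches, of 125, 213 and 170 bases, hold 16, 32 and 2 of them, and as they differ in length and kind the counts are no comparison of HA with H3K4me3 alone.
CTSZ: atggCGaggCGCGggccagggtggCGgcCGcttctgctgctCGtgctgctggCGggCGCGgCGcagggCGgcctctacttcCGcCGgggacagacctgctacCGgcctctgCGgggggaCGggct
CTSD: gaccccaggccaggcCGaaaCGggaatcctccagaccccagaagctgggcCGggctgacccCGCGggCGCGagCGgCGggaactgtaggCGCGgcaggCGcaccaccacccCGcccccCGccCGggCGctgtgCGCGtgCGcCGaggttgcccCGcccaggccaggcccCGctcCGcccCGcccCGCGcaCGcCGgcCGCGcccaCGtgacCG
CTSS: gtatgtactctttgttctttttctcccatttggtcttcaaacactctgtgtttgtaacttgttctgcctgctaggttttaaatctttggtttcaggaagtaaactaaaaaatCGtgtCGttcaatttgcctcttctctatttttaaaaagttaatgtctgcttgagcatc

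Lysosomal genes are known targets of the MiT/TFE transcription factors, which bind the CLEAR element, and the 250 bp upstream of each canonical TSS were searched for its palindromic letters TCACGTGA. CTSA held 1 exact match, and the other 9 members held none. Near matches were not counted. The motif was present in 1.33% of all 19881 upstream windows, in 2.38% of those of genes with HA and H3K4me3 in both lines and in 1.45% of those with H3K4me3 alone. The match in CTSA lies within its merged HA region, from 26 to 19 bp upstream of the TSS, and is shown in capitals with its flanks (chr20:44519937-44519966, plus strand).
CTSA: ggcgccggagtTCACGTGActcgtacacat
The E-box CACGTG, which the CLEAR letters contain, was found 2 times upstream of CTSA, 2 times upstream of CTSF, 1 time each upstream of CTSB and CTSD, and in 7.87% of all windows. The GC box, GGGCGG on either strand, was found in CTSA, CTSB, CTSC, CTSD, CTSH, CTSL and CTSZ, 1 to 6 times each, and in 59.1% of all windows. The TATA letters TATAAA, on either strand, occurred in 0 of 10 members and in 9.26% of all windows.

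The presence pattern over the 6 lists was shared with many genes. The pattern of CTSA and CTSZ, a region in all 6 lists at the canonical TSS, was held by 3442 genes, that of CTSL by 1047 and that of CTSB by 405. CTSC and CTSD had theirs in common with 4657 genes, and CTSF and CTSH with 752. These counts include the members named.

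Other genes of the cathepsin system were counted at the canonical TSS in the same way, where 30.4% of all genes had merged HA, 17.5% had a peak in every replicate and 61.0% had H3K4me3 in both lines. Of 5 further cathepsins, 2 had merged HA, CTSO and CTSV, and 0 had a peak in every replicate. Of 5 other proteases reported to cut the H3 tail, MMP2, MMP9, ELANE, PRTN3 and CTSG (which is also among the further cathepsins), 0 had HA in any list, and MMP2 alone had H3K4me3, in both lines. Of 9 cystatins, the inhibitors of cysteine cathepsins, 2 had HA in every replicate. These were CSTB, at 3.83, 4.35 and 3.75, and CST3, at 3.92, 6.27 and 8.02, while the 7 others had neither HA nor H3K4me3.

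Genes that carry cathepsins to the lysosome and build it were counted as well, and their difference from the cathepsins, and from the 30.4% of all genes with merged HA and 17.5% with a peak in every replicate, was not tested. Of 10 matched genes for sorting and maturation, 7 had merged HA and 6 had a peak in every replicate, with the highest mean fold enrichment at IGF2R, the large receptor for mannose 6-phosphate (7.90 ± 1.20, SD, n = 3), and GGA2, an adaptor of those receptors (5.93 ± 1.03, SD, n = 3). Of 9 lysosomal membrane proteins, 5 had merged HA and 3 had it in every replicate, LAMP1 at 5.33 ± 1.49, CD63 at 5.23 ± 0.240 and CLCN7 at 3.16 ± 0.616 (SD, n = 3). Of 25 acid hydrolases, 15 had merged HA and 9 had it in every replicate, among them NEU1, the neuraminidase that cathepsin A protects (9.76 ± 2.56, SD, n = 3). Of 16 subunits and accessory proteins of the vacuolar ATPase, the proton pump of the lysosome, 9 had merged HA and 5 had it in every replicate, with ATP6V0A2 at 6.62 ± 0.965 and ATP6V1A at 6.59 ± 1.34 (SD, n = 3). Of the 4 MiT/TFE regulators, 0 had merged HA and 3 had H3K4me3 in both lines. H3K4me3 in both lines was found at 10 of 10, 9 of 9, 24 of 25 and 15 of 16 genes of the sorting, membrane, hydrolase and vacuolar ATPase lists, against 6 of 10 cathepsins and 61.0% of all genes. Over all genes with H3K4me3 in both lines, 49.2% had merged HA, which is the nearer background for these lists.

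The labelled cell type was checked with H3K4me3 at marker genes. Of 7 mesenchymal and osteoblast markers, 5 were marked in both lines, including COL1A1, COL5A1 and VIM, while COL1A2 and TWIST1 were not. Markers of blood (5 genes), liver (3) and muscle (3) had none in either line. Of 4 epithelial markers, 1 was marked in WT cells, and of 3 neural markers, 1 was marked in ProMMP2-3xHA and 2 in WT cells.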

How the data were processed

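The authors trimmed reads with Trim Galore 0.6.0, aligned them as pairs to GRCh37 (hg19) with Bowtie2 2.3.5.1, kept mapping qualities of at least 30, removed duplicates with Picard and called peaks with MACS2 3.0.0a6 at a q-value of 0.05. HA replicates were called separately in narrow mode, with an HA control immunoprecipitation as background by the names of the lists. For the merged HA list the authors pooled the replicates before calling. Its intervals, like those of H3K4me3, join narrow and broad calls and have no height. The deposited replicate lists give each summit's score, its fold enrichment as a ratio, and −log10 p-values and q-values, all as the authors' peak caller wrote them.

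Lines that share an interval were counted as 1 peak. Start sites came from GENCODE version 44 on GRCh37, and a gene was counted when a region lay within 1 kb. Analyses used Python 3.11.15, numpy 2.4.6, pandas 2.3.3 and scipy 1.17.1. Fold enrichment was tested by an exact two-sided permutation of the sign over 3 replicates, and counts have no test because peaks were called on pooled or single libraries. Fragments at a summit were recovered as the whole number that yields both its fold enrichment and its p-value, at a depth ratio of HA to control of 3.57, 2.81 and 3.00, which resolved 95.3%, 99.6% and 99.0% of summits. Read totals are not in the lists, so depth is given as fragments. The intervals cover counting error only. The search and the recovery were tested on simulated data. The simulated summits followed the same formulas that the recovery inverts, so the recovered fragments of the real lists remain unchecked.

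Each of the 10 members and every gene of the other lists for which the naming rule allowed it was described: the genes with HA in every replicate where a list has 3 or fewer, otherwise the 2 with the highest mean fold enrichment. CTSO, CTSV, MMP2 and the markers named were chosen after their values were seen. The members, the lists and the rules were chosen with earlier results of these data known. M6PR was not matched and is not analysed here. The values of 1 gene that the naming rule selects are not reported here. Windows, start sites, q-values and left-out replicates were varied as alternatives.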

Additional observations from a re-analysis of the deposited data

How the results depend on the processing

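Of the 10 cathepsin genes, merged HA was at 1 from the 5′ end of the gene, at 0 within 500 bp, 3 within 2 kb, and 4 at the canonical TSS or any coding TSS. HA in every replicate went from 0 to 2 within 2 kb and at either other start site, and ranged from 0 to 2 when 1 replicate was left out (2 without replicate 1). The mean per replicate was 1.33, and 0.00 within 500 bp, 3.00 at the canonical and 3.33 at any coding TSS. H3K4me3 of ProMMP2-3xHA cells fell from 4 to 2 within 500 bp, and that of WT cells from 5 to 3, with 8 at both other start sites. The count with HA in the gene body went from 3 to 1 over 1 kb from every coding TSS or in the canonical transcript only. At the canonical TSS, by alternatives chosen after seeing the data, merged regions that overlap every replicate left 2 of 4 genes, and a q-value of 0.001 left 1 of 2 genes in every replicate (CTSA) and a mean of 2.00 instead of 3.00. For most of these alternatives the share of all genes was not computed, so the changes are not set against the background.

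The log2 fold enrichment of CTSA at the 5′ end of the gene, -0.17, turned to 0.12 without replicate 2 and ranged from -0.46 to 0.12. At the canonical TSS that of CTSL, -0.07, was 0.03 with the summit nearest to the TSS and 0.06 without replicate 3 (range -0.20 to 0.06), and that of CTSB, 0.07, was -0.06 at a q-value of 0.001. CTSZ stayed below 0 in each alternative in which it had a peak, and at a q-value of 0.001 it had none in any replicate. The median H3K4me3 width ratio, 0.761, was 0.848 from the 5′ end of the gene and 0.883 from the canonical TSS as bases within 2 kb. The other 70 of 96 alternatives were classed as unchanged, which allows a count or a mean to change within a set margin and asks of a log2 value only the same sign. Among them, the mean per replicate from the 5′ end of the gene went from 1.33 to 2.33 within 2 kb, to 0.667 at a q-value of 0.001 and to 2.00 without replicate 1, H3K4me3 of ProMMP2-3xHA cells went from 4 to 6 at both other start sites, H3K4me3 of WT cells at the canonical TSS from 8 to 6 with regions of at least 500 bp, which leaves out CTSF and CTSH, and HA in the gene body from 3 to 2 over 2 kb from the TSS. No paired analysis was possible because only the HA group of ProMMP2-3xHA cells has replicates. With 1 H3K4me3 library of each line and lists cut at a threshold, absence of a region is not absence of signal.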
